A study of Bos taurus with 2 samples.

Results

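T cells carry out cell-mediated immunity and recognise peptides through a surface receptor whose chains have no signalling ability of their own. The receptor signals through the CD3 chains and the zeta chain, the coreceptors CD4 and CD8 bind the presenting molecule and bring the kinase LCK to the complex, and LCK then phosphorylates the receptor tails. In the mammalian testis T cells lie mainly in the interstitial tissue, outside the barrier that Sertoli cells form around the developing germ cells. The signal of 10 such genes (CD3D, CD3E, CD3G, CD247, CD4, CD8A, CD8B, LCK, CD2 and CD5) was compared between crossbred and Zebu testis. They were taken by gene name from the array, where they had 27 of 51282 non-control probes and 28 of 61657 non-control spots, and they were 10 of 32429 gene names.

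The crossbred group consisted of 3 Holstein Friesian crossbred bulls with 50 to 75% exotic inheritance, and the Zebu group of 3 bulls of the Tharparkar breed. All were 24 months old, and 1 testis of each was removed by castration. The RNA of the 3 bulls of a group was pooled, labelled with Cy3 from an oligo-dT primer and hybridised to 1 array, so the groups have 1 array each, animals cannot be told apart, and no difference has a replicate check. The comparison asked how the testicular transcripts of crossbred bulls, in which subfertility is frequent, differ from those of Zebu bulls.

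Values are normalized log2 signals, the log2 of the processed spot signal minus the 75th percentile of the array (a signal of 1176 in crossbred and 1233 in Zebu testis), and every difference is crossbred minus Zebu. Non-control spots that the software marked as well above background made up 72.0% of the crossbred array and 74.3% of the Zebu array. Errors of single values are the scanner software's error of the signal. The SD of a difference between spots of the same probe was 0.34, over 5960 probes with several spots, and neither error covers labelling, pooling or animals. None of the 28 spots lay in the dark patch (544 spots) or the bright patch (105 spots) of the crossbred array.

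The transcripts of the receptor complex and of LCK gave lower signals in crossbred than in Zebu testis at the probes nearest to their 3′ ends, by 0.56 to 0.93 on the log2 scale in size, and the brightest CD8A and CD8B probes were lower too. The CD2 probe and the only bright CD4 probe had nearly equal signals on both arrays, and CD5 was near background. No member reached a difference of 1.5 in either direction. In a whole tissue, fewer T cells, less RNA per T cell and a changed share of other cells cannot be told apart. The parts of probe position and of place on the array in these values were not tested.

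The probes themselves matter for reading these values, since labelling began at the poly(A) tail. The stretches below are from the probe of CD3E, CD247 and CD4 closest to the 3′ end and from both such probes of LCK, each named by its gene and the position of the probe's first base in the transcript. Capitals mark the polyadenylation signal AATAAA or, in CD4, the run of A at the end of the probe.
CD3E 1234: tgagaaagaaaagaAATAAAgtgtatttgg
CD247 1660: gagccttactcttttgcatAATAAAtacct
LCK 1993: acacataaggagctcAATAAAtacctgttg
LCK 2003: agctcAATAAAtacctgttggcgaagattg
CD4 2901: gaaaaatacaacagacttaactttAAAAAA

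Among the 27 probes, 5 held AATAAA, as did 8.35% of all probes of the array; the fifth, not printed, is the CD3D probe at 129, which lies nearest to the 5′ end among the CD3D probes. Array probes with this motif were well above background on both arrays in 83.8% of cases, against 71.1% of all probes, and their median difference was -0.15, against -0.06 for all probes. The CD4 probe was 1 of 474 array probes that end in a run of at least 6 A, and its alignment on the genome covered 56 of its 60 bases. The pair of LCK probes shared 50 bases, so it reads nearly the same stretch. The pair of CD247 probes (1621 and 1660) shared 21 of 60 bases. Neither pair is fully independent.

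CD3D, CD3E and CD3G encode the CD3 chains, and CD247 encodes the zeta chain, which carries most of the receptor's activation motifs. The CD3 genes neighbour each other on chromosome 15 in the ARS-UCD2.0 gene table, and on the array's build, HGSC Btau_3.1, their probes lay at 27443856 to 27446869 on the plus strand (CD3E), 27451220 to 27453408 on the minus strand (CD3D) and 27461669 to 27468594 on the plus strand (CD3G). The CD247 probes lay on chromosome 3 from 1828954 to 1829052. Whether a probe lies in an untranslated region was not analysed here.

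The normalized log2 signal of the CD3E probe at 1234 was -1.46 ± 0.15 in crossbred and -0.54 ± 0.14 in Zebu testis. The difference was -0.93 ± 0.21, a 1.90-fold lower signal in crossbred testis, and 9.26% of the detected gene names differed by as much or more in that direction. The other CD3E probe, at 204, was not well above background on either array.

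CD3E also had unusual surroundings. Its neighbours, the 14 measured spots within 2 rows and 2 columns, had a median difference of -0.73, a value that only 0.767% of the array's spots reached or passed, although the spot lies outside the marked patches. Minus that median its difference was -0.20, smaller in size than the combined SD between spots.

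The CD3D probe at 1341 had 0.76 ± 0.14 in crossbred and 1.31 ± 0.14 in Zebu testis, a difference of -0.56 ± 0.20. The CD3D probes nearer to the 5′ end went the other way and were dim. The probe at 269 had -4.48 ± 0.19 and -5.03 ± 0.23, a difference of 0.55 ± 0.30, and the probe at 129 of another transcript record had -5.34 ± 0.29 and -5.47 ± 0.29, a difference of 0.13 ± 0.41. CD3D thus had no single direction over its 3 probes.

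The CD3D probe at 1341 shares 17 bases with a probe of FAM55D and 16 with a probe of UNCX, and the LCK probes at 1993 and 2003 share 17 with a probe of another gene name. Of all array probes, 12.8% share 16 or more bases in this way. Capitals mark the bases that CD3D shares with the FAM55D or the UNCX probe, in a stretch of 30 that neither probe shares whole.
CD3D 1341: TTTTAAAAATACAGTGACTTCCCTGGCAGT

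CD3G repeated the order seen in CD3D. Its probe at 285 had -5.55 ± 0.29 in crossbred and -5.91 ± 0.32 in Zebu testis, a difference of 0.36 ± 0.43. At 417 the signals were -3.13 ± 0.15 and -2.99 ± 0.15, a difference of -0.14 ± 0.21, and at 574 they were -2.64 ± 0.15 and -2.09 ± 0.15, a difference of -0.56 ± 0.21. From the 5′ to the 3′ probe of the same transcript record the difference changed by -0.91 in CD3G and by -1.11 in CD3D. With normexp background correction the CD3G differences at 285 and 574 were 0.08 and -0.37. The 5′ and 3′ probes of that CD3D record then differed by 0.23 and -0.46. The direction of both changes was kept, but both were smaller in size.

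The CD247 probe at 1621 had 0.43 ± 0.14 in crossbred and 1.19 ± 0.14 in Zebu testis, a difference of -0.75 ± 0.20. The overlapping probe at 1660 had 0.05 ± 0.14 and 0.97 ± 0.14, a difference of -0.92 ± 0.20. The spots around the pair had median differences of -0.10 and -0.17, so CD247 stood apart from its surroundings by -0.65 and -0.75.

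**Figure D1:**
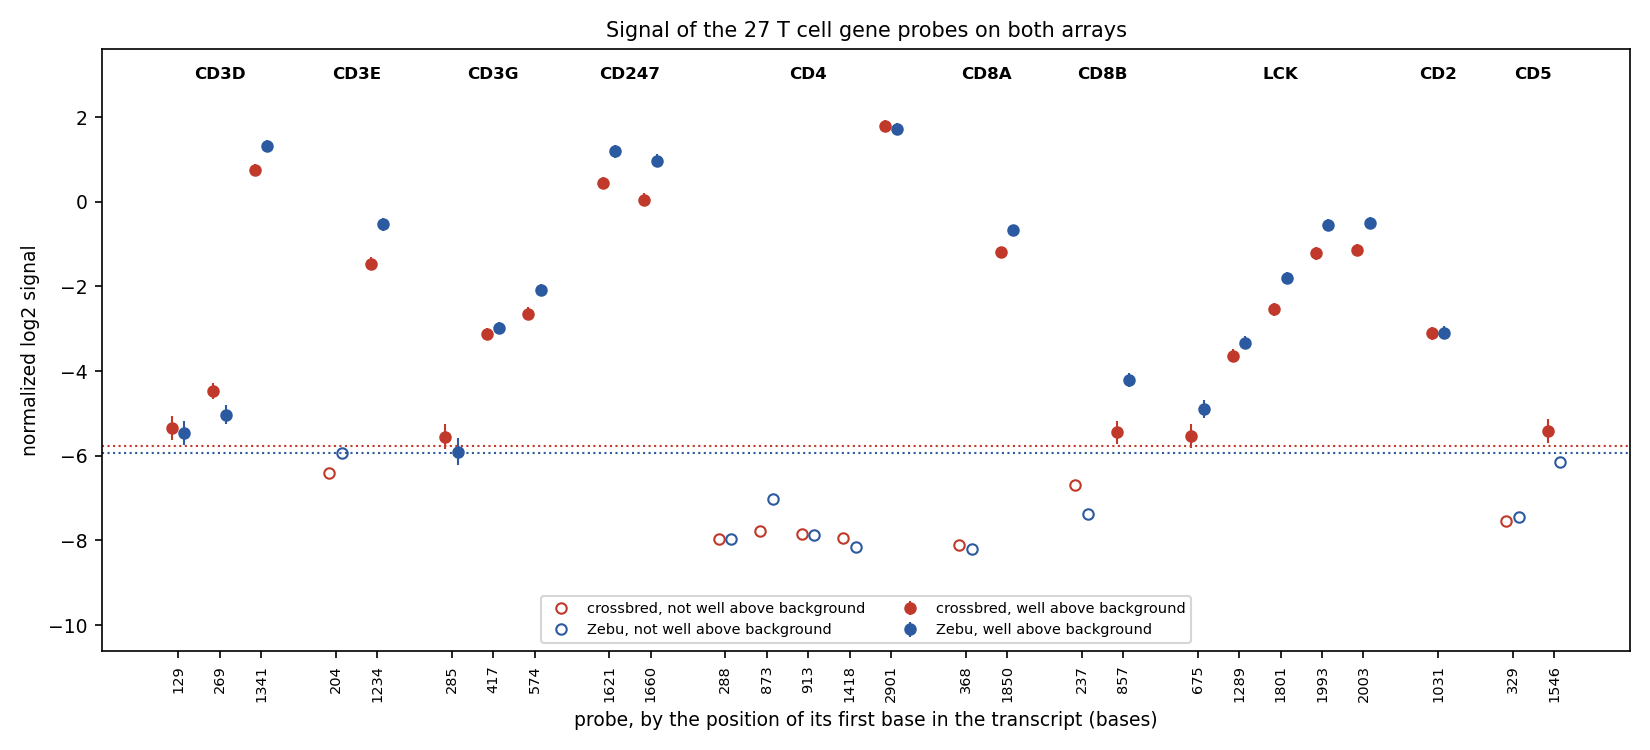
Normalized log2 signal of the 27 probes of the T cell genes on the crossbred and the Zebu array, with probes of a gene ordered by the position of their first base in the transcript and bars for the scanner software's error. Open circles were not well above background, dotted lines are the lowest signals well above background (-5.78 crossbred, -5.94 Zebu), and signals of different probes are not comparable with each other.

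CD4 is the coreceptor of helper T cells and binds class II molecules. Its probe at 2901 had 1.78 ± 0.14 in crossbred and 1.71 ± 0.14 in Zebu testis, a difference of 0.07 ± 0.20. The other 4 CD4 probes, at 288, 873, 913 and 1418, were not well above background on either array, and whether the A-ending probe at 2901 reads CD4 mRNA was not tested, and its values hold for that probe only. The probes at 873 and 913 share 20 bases, in capitals, and are shown whole because CD4 was read from 1 bright probe against these 4.
CD4 873: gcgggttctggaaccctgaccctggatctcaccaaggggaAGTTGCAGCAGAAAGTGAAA
CD4 913: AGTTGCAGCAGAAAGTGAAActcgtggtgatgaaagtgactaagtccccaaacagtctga

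On HGSC Btau_3.1 the CD4 probes lay on the minus strand of chromosome 5, the probe at 2901 from 10615424 to 10615479 and the probe at 873 from 10621424 to 10621483. The spot of the bright probe had 19 measured spots around it with a median difference of 0.66, which 0.576% of the array's spots reached or passed. Minus that median the CD4 difference was -0.59. The near equality of CD4 on the arrays was therefore not kept when its surroundings were taken into account.

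CD8A and CD8B encode the chains of the coreceptor of cytotoxic T cells, which binds class I molecules; CD8A is also made by some NK cells. The genes neighbour each other on chromosome 11. The CD8A probe at 1850 had 2 spots and a mean of -1.18 ± 0.10 in crossbred and -0.67 ± 0.10 in Zebu testis, a difference of -0.51 ± 0.14. Its spots, at separate places, differed by -0.46 and -0.56 between the arrays, and CD8A was the only member with a repeated probe. The CD8A probe at 368, printed here as a probe inside the transcript, was not well above background on either array.
CD8A 368: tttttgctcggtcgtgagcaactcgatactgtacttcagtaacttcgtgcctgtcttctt

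CD8B at 857 had a signal of 26.9 ± 5.20 in crossbred and 66.6 ± 7.90 in Zebu testis before normalization. Normalized, these were -5.45 ± 0.28 and -4.21 ± 0.17, a difference of -1.24 ± 0.33 and a 2.36-fold lower signal in crossbred testis. This was the largest difference among the members, and 3.97% of the detected gene names were as low or lower. With normexp background correction it was -0.45 and no longer the largest, beside -0.87 for CD247 at 1660 and -0.77 for CD3E. The crossbred value lay close to the lowest signal well above background (-5.78), and the CD8B probe at 237 was not well above background on either array.

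LCK, the kinase that starts receptor signalling in T cells and is also made by NK cells, had 5 probes, and all were lower in crossbred testis. At 2003 the signal was -1.14 ± 0.14 in crossbred and -0.51 ± 0.14 in Zebu testis, a difference of -0.64 ± 0.20. At 1993 it was -1.22 ± 0.15 and -0.56 ± 0.14, a difference of -0.66 ± 0.20. The remaining LCK probes, at 675, 1289 and 1801, differed by -0.64, -0.30 and -0.74. Minus the median of the surrounding spots these were -0.34, -0.07 and -0.33, while the probes at 1993 and 2003 kept -0.70 and -0.47. With normexp the dim probe at 675 differed by -0.11.

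As first given, before these steps, the 5 LCK differences lay within -0.74 to -0.30. With quantile normalization the lowest of them was -0.78. Over all gene names with several probes well above background on both arrays (8185 names), the SD of the differences between probes of a gene was 0.51. The LCK probes lay on the minus strand of chromosome 2 between 125481821 and 125488619, and the 60 bases of the probe at 675 span 364 bases of the genome.

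CD2 is an adhesion receptor of T and NK cells, and CD5 is a surface receptor that dampens receptor signalling in T cells and in some B cells. The only CD2 probe, at 1031, had a processed signal of 137 ± 14.6 in crossbred and 145 ± 15.2 in Zebu testis, a normalized log2 difference of -0.01 ± 0.22. The CD5 probe at 1546 had -5.41 ± 0.29 on the crossbred array and was too dim to be well above background in Zebu testis, which gives a signal at least 1.44-fold higher in crossbred testis. On the log2 scale this bound was 0.53, and it fell to 0.22 with normexp. The CD5 probe at 329 was not well above background on either array. CD2 was thus near 0, and CD5 at its bound lay above 0, unlike the brightest receptor complex probes.

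**Figure D2:**
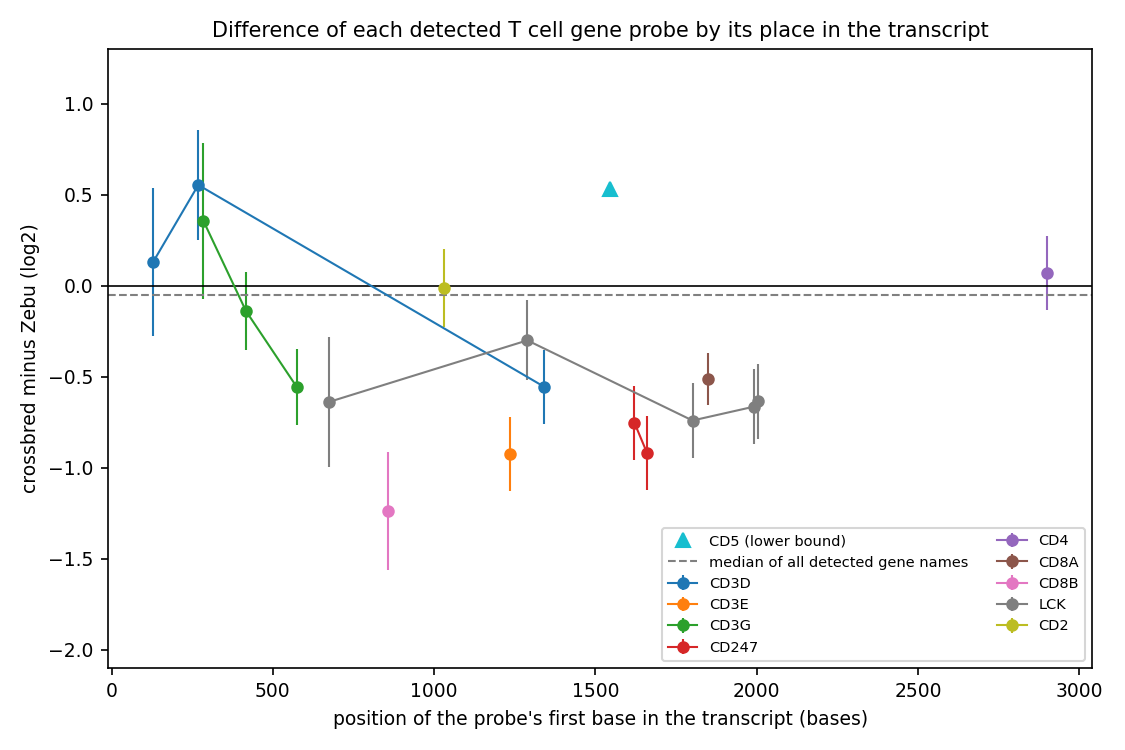
Difference between the arrays (crossbred minus Zebu, log2) of each T cell gene probe well above background on both arrays, against the position of its first base in the transcript, with lines joining probes of a gene and bars for the software's error of the difference. The triangle is the lower bound of CD5 (0.53), the dashed line is the median of all detected gene names (-0.05), and the CD3D and CD3G differences pass from above 0 at the 5′ probes to -0.56 at the 3′ probes.

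Read from the brightest probe of each gene, the median difference over the 10 members was -0.56, with CD5 at its bound, against -0.05 over the 24751 detected gene names. None of the 10 was higher by 1.5 or more, as 7.12% of the detected gene names were, and none was lower by 1.5 or more, as 2.92% were. At a threshold of 1 only CD8B was lower, beside 8.87% of gene names. Counted by sign, 8 of 10 members were below 0, beside 52.8% of gene names, and CD2 among these 8 was below 0 by 0.01 in size.

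With the lower quartile of all detected gene names (-0.49) as a line, 7 members lay at or below it, where 25% of gene names lie by construction. These were CD3D, CD3E, CD3G, CD247, CD8A, CD8B and LCK, and CD8A passed that line by 0.02. With quantile normalization 6 members lay at or below the quartile, without CD8A. The quartile was taken up after the values were seen and is a description. Of the 18 member probes well above background on both arrays, 14 were below 0 and 4 were above 0. The median over these probes was -0.56, against -0.06 over all such probes of the array. LCK gave 5 of the 14 and CD247 gave 2, both with overlapping probes, so the 14 are not separate readings. With each gene read as the median of its detected probes, the median over the members was -0.33, and 5 members lay at or below the quartile of that reading.

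Where a probe sat in the transcript went with whether it was detected. In 7 members (CD3D, CD3E, CD4, CD5, CD8A, CD8B and LCK) probes of 1 transcript record lay at least 500 bases apart. The probe closest to the 3′ end was detected on at least 1 array in all 7, and the probe closest to the 5′ end in 2 of them, CD3D and LCK. Over the 7437 transcript records with probes that far apart, the 3′ probe was detected in 92.3% and the 5′ probe in 77.7%.

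The share of transcript records detected at the 3′ probe alone was 17.8% over the array, and 5 of 7 among the members. Differences also moved along transcripts over the array. Here only probes well above background on both arrays were used, and the outermost of these were compared in 5347 transcript records where they lay at least 500 bases apart. The 3′ difference minus the 5′ difference had a median of -0.12, with quartiles of -0.54 and 0.21. LCK, from 675 to 2003, changed by 0.00, and its signals were lower in crossbred testis at both ends. With normexp the LCK probes at 675 and 2003 differed by -0.11 and -0.56, so the change of 0.00 was not kept. RNA integrity of the pools was not analysed here, and the part of probe position in the differences was not tested.

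**Figure D3:**
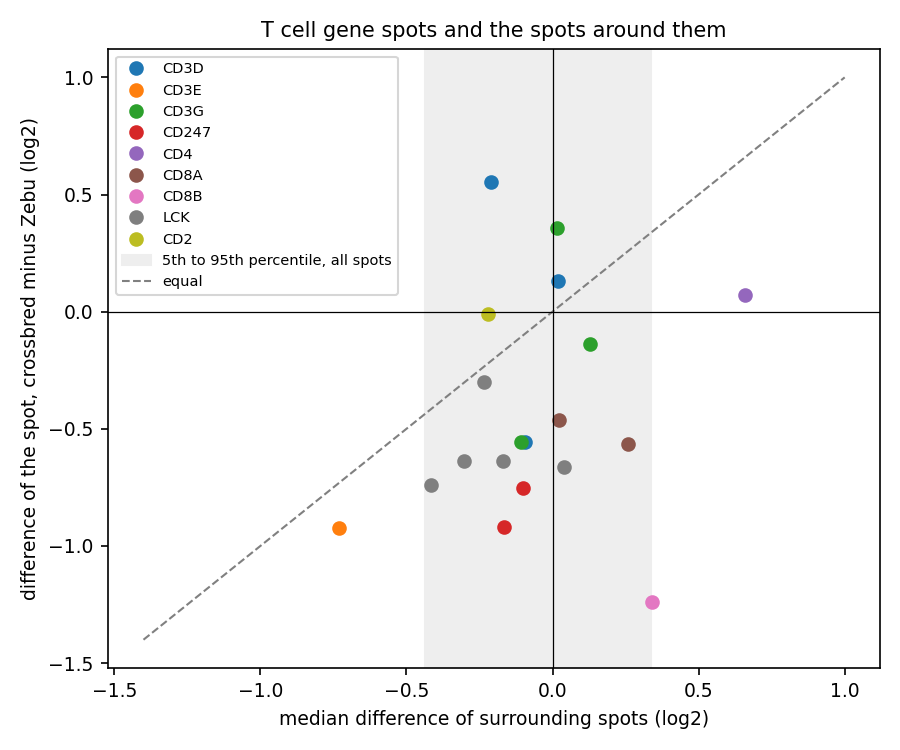
Difference of each T cell gene spot well above background on both arrays (crossbred minus Zebu, log2) against the median difference of the spots within 2 rows and 2 columns of it. The grey band spans the 5th to 95th percentile of all spots (-0.44 to 0.34), and CD3E (-0.73) and CD4 (0.66) lie far outside it.

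Subtracting the median of the surrounding spots from every difference, a step chosen after the data were seen, gave a median of -0.46 over the members and 0.02 over all detected gene names. CD8B then differed by -1.58 and was the only member past 1.5, CD2 by 0.21 and CD4 by -0.59, so the sign of CD2 and CD4 turned. The members' median stayed lower than that of all gene names by 0.48, against 0.50 without this step.

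The T cell receptor chains themselves were on the array under older names. TCRA, the alpha chain, had 15 probes, and the brightest, at 928, had 0.82 in crossbred and 1.02 in Zebu testis, a difference of -0.19. At 951 TCRA had 0.56 and 0.93, a difference of -0.37, and 8 of its 15 probes were detected on neither array. The TCRA probe at 108 went the other way, with -4.42 in crossbred testis and no signal well above background in Zebu testis, for a bound of 1.52; the other detected TCRA probes were lower. TRD@, the delta chain, had 1.35 and 2.56 at 1490, a difference of -1.21, and 1.11 and 2.21 at 1877, a difference of -1.10. The dim TRD@ probe at 336 differed by -0.05. The gamma chain names TRGC6 and TRGV7-1 were not well above background on either array.

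Gamma delta T cells are abundant in cattle, and many of them carry WC1, a family of scavenger receptors. WC1 had -0.83 in crossbred and -2.09 in Zebu testis, and the difference was 1.26, with all 4 probes higher in crossbred testis. WC1.3 differed by 0.79 and WC1-12 by 1.09. The bright delta chain probes and the WC1 names, both markers of gamma delta T cells, thus went in opposite directions, and none of these names passed 1.5 at its brightest probe.

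Of the 29 genes of receptor signalling and the T cell surface, 24 were detected, and the median difference was -0.09. By 1.5 or more, 4 were higher (7.12% of all detected gene names) and 0 were lower (2.92%). The 4 higher genes became 2 with normexp, 2 minus the surrounding spots and 0 with the median of all detected probes of a gene. PRKCQ, a kinase downstream of the receptor, had 2.25 in crossbred and 0.64 in Zebu testis. This difference of 1.61 was joined by its other probes, so all 4 were higher. CTLA4, an inhibitory receptor, had -1.97 and -3.58, a difference of 1.61. CD28, the costimulatory receptor, differed by 1.97 at its brightest probe and by -0.18 at the other. GRAP2, an adaptor, was counted by its measured difference of 1.64 but was dim in Zebu testis, where its bound is at least 1.40-fold.

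The nearest partners of the members were looked at after their values were seen. ZAP70, the kinase that binds the phosphorylated CD3 and zeta chains, had -3.24 in crossbred and -1.88 in Zebu testis, a difference of -1.36. Its substrates LAT and LCP2 differed by -0.29 and -1.06, though 1 of the 4 LCP2 probes was higher, by 0.50, and another lay in the dark patch. CD6, CD40LG, THEMIS, TRAT1 and UBASH3A, most of them largely restricted to lymphocytes, were not well above background on either array.

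Of the 11 T cell transcription factors on the array, 9 were detected and none passed 1.5, with a median of -0.36. TOX had -0.33 in crossbred and 0.97 in Zebu testis, a difference of -1.31. LEF1 differed by 0.50 and RUNX3 by 0.31. EOMES and IKZF1 were not well above background on either array.

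Cytokine receptors and homing genes had 9 of 10 detected, none past 1.5 and a median of -0.12. IL7R, the receptor that keeps naive and memory T cells alive, had -4.14 in crossbred and -5.40 in Zebu testis, a difference of 1.26. CCL5, a chemokine of activated T and NK cells, had 1.88 and 2.89, a difference of -1.01, and was lower at all 3 probes, 1 of them in the dark patch. CXCR3 differed by -0.41, and CCR7 was not well above background on either array.

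Cytotoxic granule genes had 10 of 11 detected, 2 higher (1 with the median of all detected probes), 0 lower and a median of -0.46. GZMB, a granule protease, was higher by 2.64 and 2.65 at probes 834 and 775 and lower at 802 and 675, with -1.36 and -1.32, so the name GZMB holds probes of opposite direction. FASLG, the ligand of the death receptor FAS, had -2.37 in crossbred and -4.90 in Zebu testis, a difference of 2.53. All 3 FASLG probes were higher. GZMA was not well above background on either array. Over these 4 lists together, 52 of 61 genes were detected. Of the 52, 6 were higher by 1.5 or more (7.12% of all detected gene names), 0 were lower (2.92%) and 37 were below 0 (52.8%), and the median was -0.16.

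**Figure D4:**
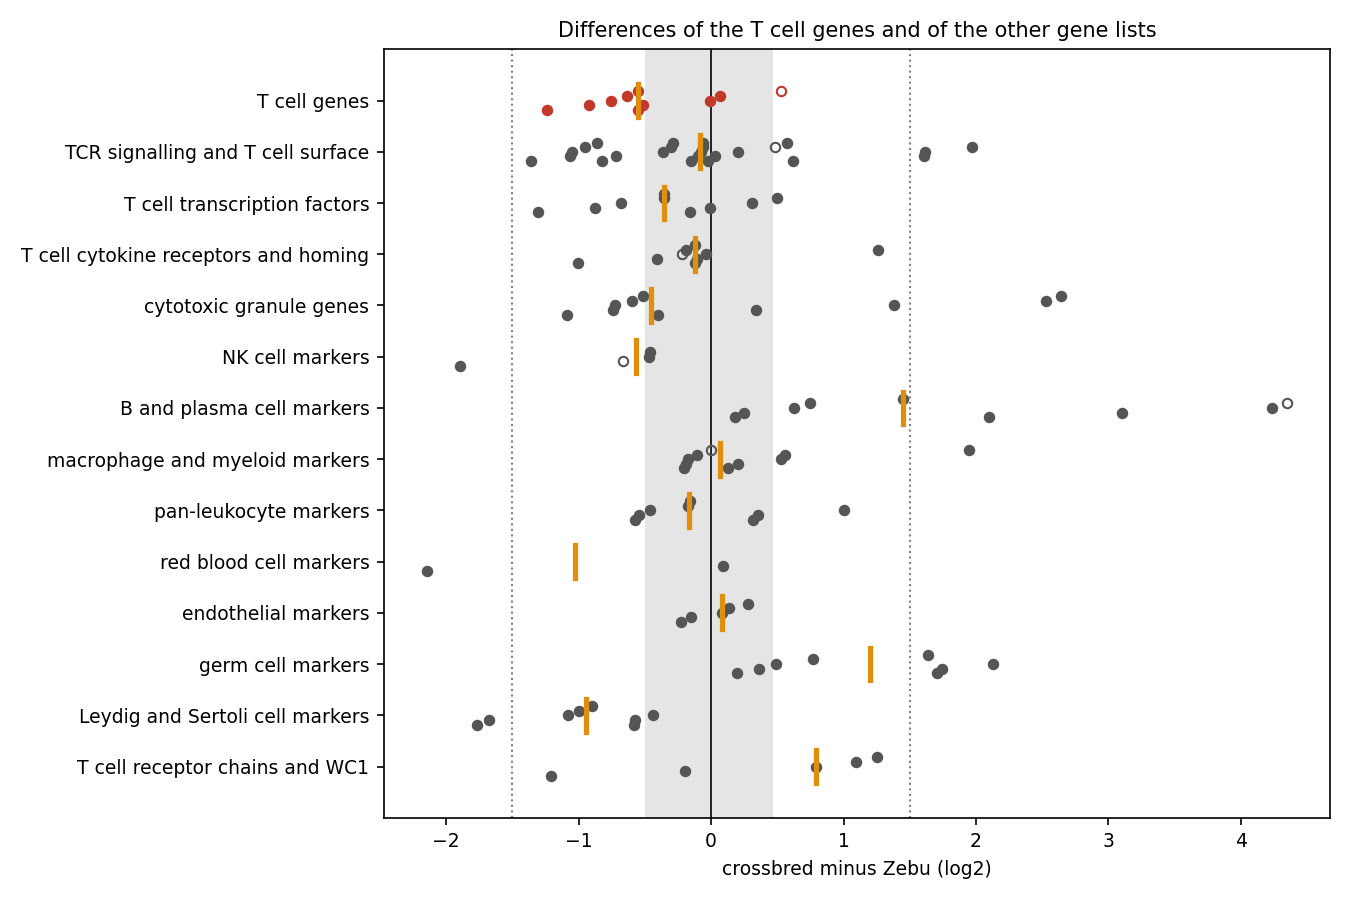
Differences (crossbred minus Zebu, log2) of the T cell genes, in red, and of the genes of each other list, in grey, each read from its brightest probe, with open circles for bounds, orange lines for medians and dotted lines at 1.5 in either direction. The grey band spans the quartiles of all detected gene names (-0.49 to 0.46), and the T cell genes have a median of -0.56 with 7 of 10 at or below the band's lower edge.

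Markers of other cells of the testis also moved between the arrays, and their part in the T cell gene differences was not tested. Summed signals below are in units of the array's 75th percentile signal, with 1 probe per gene. Over the T cell genes the sum was 8.05 in crossbred and 10.5 in Zebu testis. The CD4 probe at 2901, not tested for reading CD4 mRNA, was the brightest in it. Signals of different probes are not comparable, so a sum depends most on its brightest probes. Beside the list counts below, 7.12% of all detected gene names were higher by 1.5 or more, 2.92% lower and 52.8% below 0.

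NK cells share CD247, CD2 and LCK with T cells. Of 7 NK cell markers 4 were detected, all below 0, and KLRC1 (-1.89) and KLRD1 (measured -1.61, at least 1.59-fold lower) were counted as lower. Of these calls 0 were left with normexp or with the median of all detected probes, and 1 with quantile normalization, with only probes well above background on both arrays, or minus the surrounding spots. The NK sum was 0.253 in crossbred and 0.431 in Zebu testis, NCR3 had the brightest probe, and NCR1, KLRB1 and KLRF1 were not well above background on either array.

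B and plasma cell markers went the opposite way to the brightest probes of the receptor complex, though CD4 (0.07) and CD5 at its bound (0.53) also lay above 0. All 9 on the array were detected and above 0, with 4 higher by 1.5 or more (PAX5 by 4.24, IGJ with 1.72 in crossbred and -1.38 in Zebu testis, BLNK by 2.10, and MS4A1, dim in Zebu testis, at least 20.4-fold), a median of 1.45 and a sum of 7.31 against 1.84. IGJ had the brightest probe. Of 11 macrophage and myeloid markers 10 were detected, with AIF1 higher by 1.95, a median of 0.06 and a sum of 30.9 against 22.0. C1QA was brightest in the mean of both arrays, and ITGAM was at background on both. The higher crossbred sum rested largely on the 1 probe of AIF1, with 3.09 in crossbred and 1.14 in Zebu testis.

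Pan-leukocyte markers, all 8 detected, had none past 1.5, a median of -0.17 and a sum of 11.4 against 15.3. CD52, the brightest, differed by -0.58, LCP1 by -0.55 and CORO1A by 0.35, and CD37 had -2.58 in crossbred and -3.58 in Zebu testis. Markers of leukocytes as a whole were thus not uniformly lower in crossbred testis.

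Blood in the tissue would bring T cells with it, so red blood cell markers were read as well. HBA had -0.93 in crossbred and 1.22 in Zebu testis, a difference of -2.15, while AHSP differed by 0.09 and HBB, ALAS2 and SLC4A1 were not well above background on either array, for 2 of 5 detected, a median of -1.03 and a sum of 0.989 against 2.77, with HBA brightest. All 5 endothelial markers were detected, with none past 1.5, a median of 0.08 and a sum of 0.954 against 0.940. VWF was the brightest and differed by 0.13, CDH5 by 0.28, EMCN by -0.15 and TEK by -0.23.

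Germ cell, Leydig and Sertoli cell markers were read in the same way. All 8 germ cell markers were above 0, with 4 higher by 1.5 or more (ODF1 by 2.13, TNP2 by 1.74, AKAP4 by 1.71 and ACRV1 by 1.64), a median of 1.20, a sum of 405 against 243 and PRM1 brightest. All 8 Leydig and Sertoli cell markers were below 0, with HSD3B1 (-1.77) and CYP17A1 (-1.68) lower by 1.5 or more, a median of -0.95, a sum of 137 against 222 and INSL3 brightest. At their brightest probes the receptor complex and LCK thus differed in the same direction as the Leydig and Sertoli cell markers and opposite to the germ cell markers. This did not hold for all members: CD4 (0.07) and CD2 (-0.01) were near 0, and CD5 at its bound (0.53) lay above 0.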

How the data were processed

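Pooled testis RNA of crossbred and Zebu bulls was measured on 1 array per group, both on 1 slide. The authors deposited processed signals, an intensity that the scanner software (Agilent Feature Extraction) had background-subtracted and detrended within each array, with mean and local background intensities and marks for spots. The authors also deposited log2 values shifted by the 75th percentile, used as an alternative. The units were checked against the values of each file.

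For each probe, log2 processed signals were averaged across its spots and shifted by the 75th percentile. Control spots and 13 outlier spots were removed; 0 spots were saturated. The probe with the highest mean stood for a gene, which counted as higher or lower from 1.5 on the log2 scale if its brighter side passed the software's background mark. For a dim side, a bound was taken against its own value or the lowest signal well above background, whichever was higher. Probes dim on both arrays have no difference.

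Genes named outside the members are those past 1.5 in their list, otherwise the 2 largest rises and 2 largest falls, and the brightest probe of each marker list; 1 gene that this rule selects is not reported here. ZAP70, LAT, LCP2, AHSP, WC1.3 and genes at background on both arrays were named beyond this rule. The members and lists were chosen with earlier results of these data known. Names were matched to the ARS-UCD2.0 gene table, which held all 10 members and 25 of their 27 probe accessions. BCL11B, GZMK, CD22, MRC1, HBA1 and SOX9, which the lists also held, were not analysed here. With 1 array per group, no test was made, and precision is limited by the number of arrays. The averaging of spots, the percentile shift and the calls of higher or lower were also tested on simulated data. The choice of the brightest probe, normexp, quantile normalization, the subtraction of surrounding spots and the comparison along transcripts were not tested in this way. Python 3.11.15, numpy 2.4.6, pandas 2.3.3, R 4.3.3 and limma 3.58.1 were used.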

Additional observations from a re-analysis of the deposited data

How the results depend on the processing

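The median difference over the T cell genes was -0.56 and ranged from -0.59 with quantile normalization to -0.33 with the median of all detected probes of a gene. Over the same settings the median of all detected gene names ranged from -0.08 to 0.02. Of 114 recomputed differences of single member probes, 5 moved by more than the combined SD between spots (0.34). The sign turned only for CD2 and CD4, both when the surrounding spots were subtracted. With normexp background correction CD8B at 857 differed by -0.45 and LCK at 675 by -0.11; both are dim probes, and the cause was not tested.

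The count of T cell genes lower was 1 in place of 0 at a threshold of 1 and after subtracting the surrounding spots, CD8B in both; the count higher was 0 in every setting run. Over the other lists together, genes higher numbered 15 and lower 5, with 12 and 3 under normexp, 10 and 3 under the median of all detected probes, and 20 and 14 at a threshold of 1. Over all gene names, 1762 were higher and 722 lower. With normexp these were 1030 and 169, so the share of higher among called names was 85.9% against 70.9%. At a threshold of 1 they were 3173 and 2196. Lower names numbered 437 with the median of all detected probes and 398 with only probes well above background on both arrays, and the cause of these changes was not tested.

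No paired analysis was possible because each group has 1 array. Low signal over background limits CD5, CD8B and the 5′ probes of CD3D, CD3E, CD3G, CD4, CD8A and LCK.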
